A study of Mus musculus with 6 samples.

Results

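The 29 genes described here encode the enzymes that build cholesterol from acetyl-CoA and the proteins that adjust that synthesis and handle the product in the liver. They were chosen by gene symbol, with no measured value in the rule, and all 29 were found among the 54532 genes of the count table and among the 13377 genes that passed the filter on low counts. By role they comprise 8 enzymes of the mevalonate and isoprenoid segment, 11 enzymes that turn farnesyl diphosphate into cholesterol, 6 regulators of the transcription factor SREBP2, and 4 genes of sterol handling. RNA was sequenced from the livers of 6 male C57BL/6J mice, all of them on a high-fat diet (HFD) from 8 weeks of age for 6 weeks, the study's model of insulin resistance (IR). All 6 were fasted for 16 h. In the IR insulin group 3 mice received insulin at 0.75 units/kg by intraperitoneal injection, in the IR vehicle group 3 mice received BSA, the carrier protein, and the treatment lasted 6 h. No mouse on normal chow entered the comparison, so what the diet itself does to these genes was not analysed here. The model is a dietary one in wild-type mice, without a transgene.

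Cholesterol synthesis starts with the condensation of acetyl-CoA units into mevalonate, which is phosphorylated and decarboxylated to the isoprenoid building blocks of farnesyl diphosphate. Squalene synthase commits that intermediate to sterols, and a chain of oxidations, demethylations and reductions in the endoplasmic reticulum gives cholesterol. When membrane sterol is scarce, the escort protein SCAP carries SREBP2 to the Golgi apparatus, where a pair of proteases, encoded by Mbtps1 and Mbtps2, release the part of SREBP2 that activates genes for synthesis and uptake. INSIG proteins hold SCAP back when sterol is plentiful, and Insig1 is itself an SREBP target, which closes a feedback loop. In liver, insulin is known mainly as an activator of SREBP-1c and of fatty acid synthesis, and the liver-specific Insig2 transcript is known to be repressed by insulin.

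Insulin was compared with vehicle to ask whether the transcripts of this pathway differed 6 h after the hormone was given. Levels are read counts scaled to a common effective library size (CPM), and positive log2 fold changes mean higher values with insulin. With edgeR (quasi-likelihood F test, adjusted over the genes tested) 0 of the 29 members passed an adjusted p of 0.05, as did 0 of 13377 genes (0% called; smallest adjusted p = 0.852). Before adjustment, 383 genes and 1 member had p under 0.05. The study's own criteria, a log2 fold change of 0.35 or more in either direction and p under 0.05 before adjustment, called 134 genes higher (1.0% of those tested) and 249 lower (1.86%). Of the members, 1 was higher (Fdps) and 0 were lower by those criteria. DESeq2 called 2 members (Fdps and Mvd, both higher), beside 148 genes higher and 359 lower in the whole table. The groups were fully separated for 2 members that were higher with insulin, Fdps and Mvd, against 836 genes (6.25%) of all tested. They were separated likewise for 2 that were lower, Sc5d and Mbtps2, against 808 genes (6.04%). The median log2 fold change of the members was −0.04 (14 positive, 15 negative), beside −0.02 over all genes tested. In whole liver, fewer cells of a type and less RNA per cell cannot be told apart.

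Libraries held 18449986 to 21827619 counts. Vehicle replicate 2 stood apart: 16470 genes had a count there against 18389 to 18874 in the others. Its difference from the median of the other libraries fell with the GC content of the transcript, with a Spearman rho of −0.67 across 13367 genes and −0.75 across the 29 members. The other 5 libraries lay between −0.15 and 0.31 across genes. Across the members they lay between 0.03 and 0.54, the highest being insulin replicate 1. Genes are not independent replicates, and these rho values are descriptions. Hepatocyte markers dominated every library, with a summed level of 65110 to 154400 CPM in vehicle and 53670 to 69240 CPM in insulin livers. Most of each sum was Alb, which measured 138400 CPM in vehicle replicate 2. In that library Alb, Ttr and Apoh were at their highest, and Apoa1 and Hnf4a at their lowest. The 4 erythroid markers summed to 406 to 1233 CPM in vehicle and 298.5 to 459.6 CPM in insulin livers, and 3 of them were lower with insulin by the study's criteria. Muscle and pancreas markers summed to at most 0.0613 and 0.81 CPM, with Acta1, Mb, Myh1, Prss2, Cpa1 and Ctrb1 at 0. Of the 4 adipocyte markers, Lep was at 0, Adipoq had at most 1 count and Plin1 at most 2 in any library. Cfd, which made up nearly the whole sum of that list, measured 63.4, 26.6 and 0.143 CPM in vehicle and 153.4, 96.5 and 24.98 CPM in insulin livers. Vehicle replicate 3 also had the lowest sum of the 4 neutrophil markers (3.43 CPM, against 27.2 to 72.9 CPM in the other libraries) and the highest sum of the 4 sinusoidal endothelium markers (234.9 CPM, against 115 to 129.6 CPM). Of the B cell markers, Ms4a1 was lower with insulin by the study's criteria, with 136 counts in vehicle replicate 2 and 7 to 17 in the other libraries. The part of these differences in the results below was not tested.

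**Figure D1:**
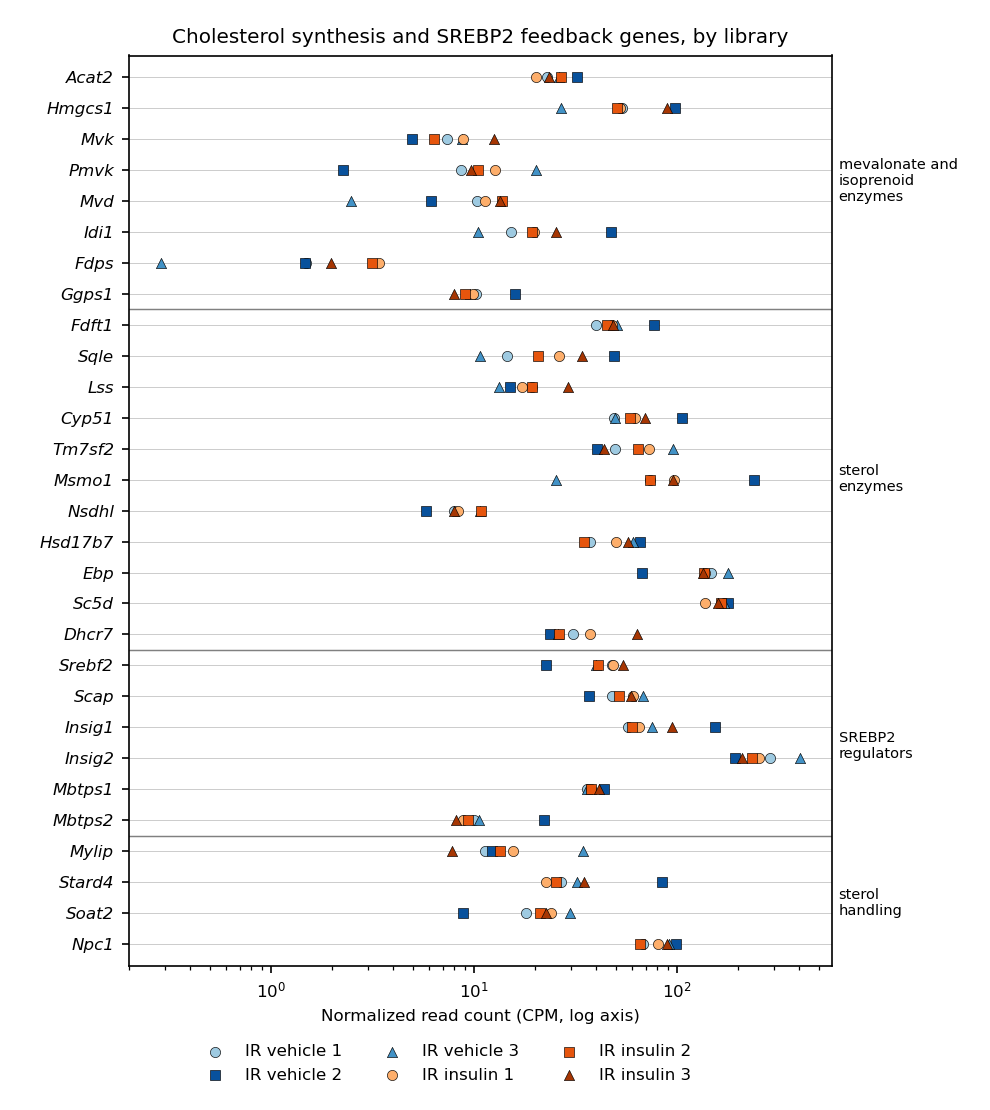
Normalized level (CPM, log axis) of each of the 29 members in each of the 6 libraries, ordered by role; blue symbols are IR vehicle, orange symbols are IR insulin, and circle, square and triangle are replicates 1, 2 and 3. Vehicle replicate 2 (dark blue squares) is the highest library for 15 members and the lowest for 10, and the insulin libraries mostly lie close together.

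SREBP2 binds sterol regulatory elements and acts with the factors NF-Y, which binds CCAAT, and Sp1, which binds GGGCGG. RefSeq promoter windows (build GRCm38.p6, 250 bases before to 50 bases after the start, 300 bases in all) were found for 23 of the 29 members, with 29 windows between them. The table used here held no entry for Npc1, Fdft1, Soat2, Fdps, Sqle and Stard4. Both strands were searched. The element TCACNCCAC was found in the window of 1 member, Hmgcs1, that is 3.45% of the member windows against 1.24% of all 32851 windows. The shorter CACCCCAC, which overlaps it in Hmgcs1, was found in Acat2 and Hmgcs1 (6.90% against 2.87%). CCAAT was present in 19 of the member windows (65.5% against 37.4%), GGGCGG in 23 (79.3% against 35.7%) and the E-box CACGTG in 6 (20.7% against 7.15%), the last belonging to Dhcr7, Hsd17b7, Insig1, Sc5d and Scap. The 32851 windows were not matched to the members for expression or GC content. A match is a description of these letters, not a bound site. The promoter stretches of 4 members are shown, each ending before the annotated gene: Hmgcs1 for its sterol element, Mvd and Mbtps2 because their groups did not overlap, and Insig1 as the feedback sensor. Capitals mark the letters of a searched motif on either strand (ATTGG and CCGCCC are CCAAT and GGGCGG read on the other strand). They lie at chr13:119690101-119690350 (plus strand), chr8:122443423-122443672 (minus), chr5:28071162-28071362 (plus) and chrX:157598716-157598965 (minus).
Hmgcs1: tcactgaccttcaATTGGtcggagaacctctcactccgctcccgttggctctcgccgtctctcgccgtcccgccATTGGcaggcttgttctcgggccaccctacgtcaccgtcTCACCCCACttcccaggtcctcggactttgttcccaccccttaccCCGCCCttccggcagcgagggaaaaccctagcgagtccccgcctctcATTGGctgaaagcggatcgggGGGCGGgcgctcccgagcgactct
Mvd: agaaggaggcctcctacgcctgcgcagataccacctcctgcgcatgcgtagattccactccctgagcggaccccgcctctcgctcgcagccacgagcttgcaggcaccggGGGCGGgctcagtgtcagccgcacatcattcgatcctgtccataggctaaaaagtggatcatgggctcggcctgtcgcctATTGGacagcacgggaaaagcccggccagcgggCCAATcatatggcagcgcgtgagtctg
Insig1: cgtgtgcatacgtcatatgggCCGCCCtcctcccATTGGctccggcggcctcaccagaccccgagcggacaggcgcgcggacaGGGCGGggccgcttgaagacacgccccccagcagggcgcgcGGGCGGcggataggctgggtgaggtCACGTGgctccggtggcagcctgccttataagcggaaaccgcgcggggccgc
Mbtps2: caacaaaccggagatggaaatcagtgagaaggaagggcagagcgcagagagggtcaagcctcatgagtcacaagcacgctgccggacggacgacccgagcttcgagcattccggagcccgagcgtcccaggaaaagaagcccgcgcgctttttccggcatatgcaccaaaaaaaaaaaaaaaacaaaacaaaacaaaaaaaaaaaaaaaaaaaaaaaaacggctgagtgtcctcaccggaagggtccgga
In Hmgcs1 the sterol element spans bases −137 to −129 from the start and lies between CCAAT letters at −176 to −172 and GGGCGG letters at −92 to −87. The Mvd stretch holds 2 CCAAT boxes and 1 GGGCGG and no sterol element of the searched spelling, and the Mbtps2 stretch holds none of the motifs.

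Among the enzymes of the mevalonate and isoprenoid segment, Fdps and Mvd were higher in every insulin liver than in any vehicle liver, while the members at the head of the segment overlapped between the groups. Of the 8 enzymes, 5 had positive and 3 negative log2 fold changes (median 0.09), and 1 was called by the study's criteria. Fdps, farnesyl diphosphate synthase, stands at the branch between sterols and other isoprenoids. It measured 1.48, 1.47 and 0.286 CPM in vehicle replicates 1, 2 and 3 and 3.42, 3.16 and 1.98 CPM in insulin replicates 1, 2 and 3. All insulin values lay above all vehicle values, and vehicle replicate 3, the library with few neutrophil and many endothelial marker counts, was the lowest by a wide margin. The log2 fold change was 1.41 ± 0.60 (SE; edgeR adjusted p = 0.852). These levels rest on few reads, 6 to 28 counts in the vehicle and 43 to 76 in the insulin libraries, and per kilobase of transcript Fdps was the lowest of the 29 (0.467 CPM per kb). Without vehicle replicate 3 the log2 fold change was 0.95, and the call was lost. It was lost as well without vehicle replicate 1 (1.73), insulin replicate 1 (1.26) or insulin replicate 2 (1.33), and with GC content entered as an offset (1.30). Without vehicle replicate 3 or 1 the unadjusted p was 0.05002 or 0.05148 (edgeR quasi-likelihood F test). Of 13 alternatives 8 kept the call, among them the replicate block with the GC offset (1.49) and the sum with copies described below.

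The annotation bears on the Fdps count. The gene lies at chr3:89093588-89101959 (GENCODE M21, minus strand), and 26.7% of its exonic bases are shared with Gm43738, a gene annotated on the same strand that had 0 counts in all 6 libraries. Fdps also shares 3.24% of its 50-base stretches with Gm3571, a processed pseudogene on chromosome 10. That pseudogene had 91, 58 and 56 counts in vehicle and 153, 173 and 110 in insulin libraries, so it drew more counts than its parent gene in every library. Its groups did not overlap either, with a log2 fold change of 0.82 ± 0.33 (edgeR adjusted p = 0.852). Gm3571 was thus also higher by the study's criteria. When Fdps and these copies were summed, an alternative chosen after seeing the data, the level was 6.29, 5.03 and 2.95 CPM in vehicle and 10.3, 10.6 and 7.05 CPM in insulin livers. The summed log2 fold change was 0.97 ± 0.35 (edgeR adjusted p = 0.852), and the sum met the study's criteria. Separation of the groups was thus present both in the gene and in the sum, at a smaller size in the sum.

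Mvd, mevalonate diphosphate decarboxylase, makes isopentenyl diphosphate. Its values were 10.4, 6.13 and 2.48 CPM in vehicle and 11.4, 13.8 and 13.4 CPM in insulin livers. The insulin livers were close together and above all vehicle livers, although vehicle replicate 1 and insulin replicate 1 nearly met. The log2 fold change of 1.02 ± 0.46 missed the criteria (edgeR adjusted p = 0.852). The Mvd transcript is among the most GC-rich of the 29 (59.0%). With GC content entered as an offset per library, the log2 fold change was 0.37, and without vehicle replicate 3 it was 0.64. Without vehicle replicate 1 it was 1.59 and met the criteria, as it did with DESeq2 (1.014).

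Hmgcs1 and Acat2 had the highest levels per kilobase of this segment (13.5 and 9.94 CPM per kb). Hmgcs1, cytosolic HMG-CoA synthase, measured 53.8, 97.95 and 26.8 CPM in vehicle and 52.6, 50.6 and 89.0 CPM in insulin livers. Vehicle livers included both the highest and the lowest value, and the groups overlapped fully (log2 fold change 0.11 ± 0.46, adjusted p = 0.954). Whether the match to the sterol element shown above bears on these levels was not tested. Acat2, the cytosolic acetoacetyl-CoA thiolase, measured 22.9, 32.1 and 26.4 CPM in vehicle and 20.1, 26.9 and 23.5 CPM in insulin livers (log2 fold change −0.21 ± 0.23, adjusted p = 0.855). Acat2 shares 45.9% of its 50-base stretches with the neighbouring Acat3, so the counts of the pair cannot be assigned with certainty. Their sum, also an alternative chosen after seeing the data, had a log2 fold change of −0.24 ± 0.21 (edgeR adjusted p = 0.852). The groups of the sum did not overlap, lower with insulin, but vehicle replicate 3 and insulin replicate 2 both rounded to 121.1 CPM. The remaining members of the segment were Mvk and Pmvk, the mevalonate kinases, Idi1, the isomerase of the isoprenoid units, and Ggps1, which makes geranylgeranyl diphosphate for protein prenylation. Their log2 fold changes were 0.40, 0.07, −0.17 and −0.41, with adjusted p from 0.852 to 0.977.

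**Figure D2:**
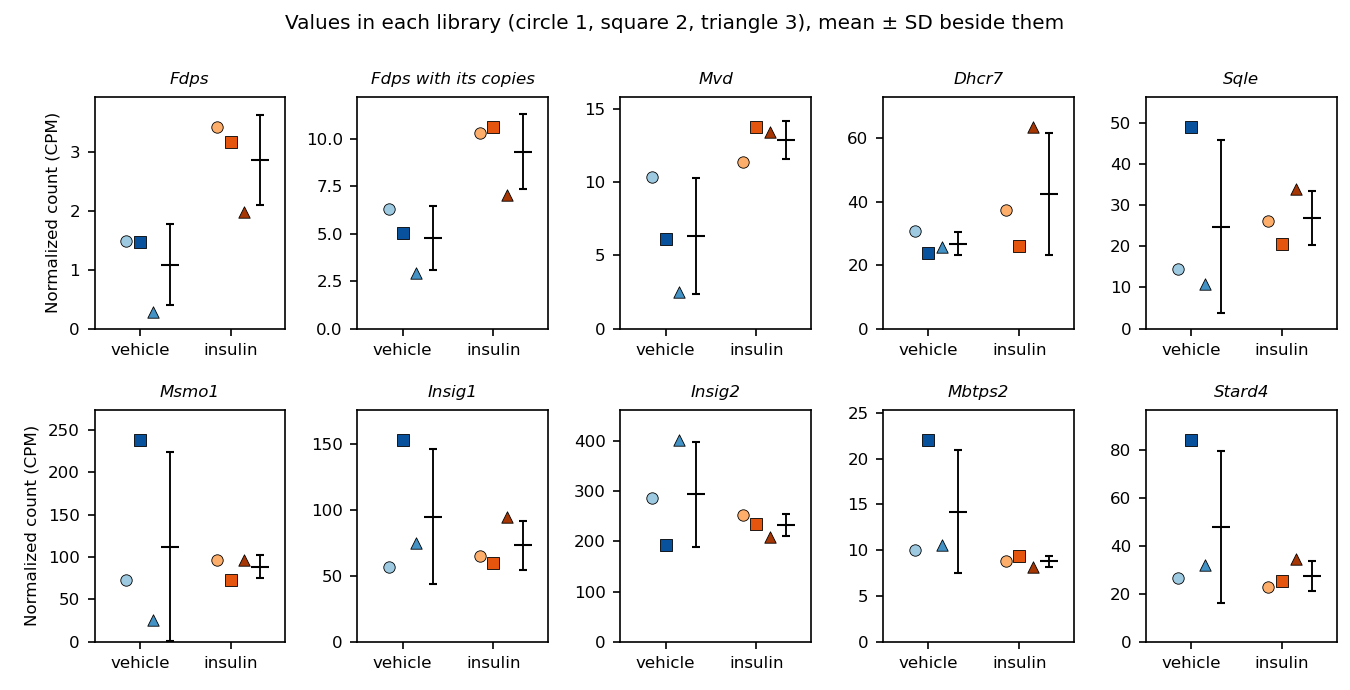
Level (CPM, axes from 0) in each library for Fdps alone, Fdps summed with its copies, and 8 further members, with mean ± SD of 3 livers beside the points. Fdps and Mvd do not overlap between groups, Sqle, Msmo1, Insig1, Mbtps2 and Stard4 have 1 high vehicle library (replicate 2), and Insig2 has its high value in vehicle replicate 3.

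The sterol enzymes showed no common direction. Of 11, 5 had positive and 6 negative log2 fold changes (median −0.04), and 0 were called. Dhcr7, which reduces dehydrocholesterol to cholesterol, had the smallest p of this group. It measured 30.7, 23.7 and 25.8 CPM in vehicle and 37.4, 26.1 and 63.5 CPM in insulin livers, and vehicle replicate 1 lay above insulin replicate 2. The log2 fold change was 0.66 ± 0.34 (edgeR adjusted p = 0.852), and it came to 0.26 without insulin replicate 3, the highest liver. Without insulin replicate 2 it was 0.92 and met the criteria, as it did with no filter on low counts (0.69). Lss, lanosterol synthase, which closes the sterol rings, measured 19.2, 14.96 and 13.3 CPM in vehicle and 17.2, 19.4 and 29.1 CPM in insulin livers, again with overlap and with insulin replicate 3 highest (log2 fold change 0.47 ± 0.28, adjusted p = 0.852).

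Ebp and Sc5d had the highest levels per kilobase among the enzymes (57.6 and 33.6 CPM per kb). Ebp, the sterol isomerase, measured 147.5, 67.2 and 177.3 CPM in vehicle and 137.5, 135.2 and 134.2 CPM in insulin livers. Vehicle livers spread on both sides of the narrow insulin range (log2 fold change 0.05 ± 0.35, adjusted p = 0.970). Sc5d, a sterol desaturase, was lower in every insulin liver, at 170.7, 178.3 and 170.0 CPM in vehicle and 137.7, 165.4 and 159.1 CPM in insulin livers. The separation was narrow, with a log2 fold change of −0.17 ± 0.20 (adjusted p = 0.859), and with the GC offset it was 0.004.

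Sqle and Msmo1 were picked out after their values were seen, because 1 vehicle liver lay far above the insulin livers and another below them. Sqle, squalene epoxidase, a control point of the sterol segment, measured 14.6, 49.1 and 10.7 CPM in vehicle and 26.1, 20.6 and 33.9 CPM in insulin livers. Vehicle replicate 2 exceeded every insulin liver and both other vehicle livers lay below every insulin liver. Over all libraries the log2 fold change was 0.12 ± 0.55 (adjusted p = 0.956). Msmo1, a sterol methyl oxidase, measured 73.4, 238.3 and 25.2 CPM in vehicle, a 9.46-fold range, and 96.6, 73.5 and 96.0 CPM in insulin livers (log2 fold change −0.34 ± 0.67, adjusted p = 0.902). Without vehicle replicate 2 the log2 fold change of Sqle was 1.09 and that of Msmo1 was 0.85, the former past the study's criteria over the remaining 5 libraries. Idi1 and Cyp51 likewise met the criteria without that library, at 0.75 and 0.38. Squalene synthase (Fdft1), the demethylase Cyp51, the reductase Tm7sf2, and the demethylation partners Nsdhl and Hsd17b7 had log2 fold changes of −0.24, −0.10, −0.04, 0.15 and −0.21, with adjusted p from 0.855 to 0.981.

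Among the SREBP2 regulators, 3 had positive and 3 negative log2 fold changes (median −0.16) and 0 were called. Mbtps2, the intramembrane protease that completes the release of SREBP2, was lower in every insulin liver. It measured 10.04, 22.0 and 10.6 CPM in vehicle and 8.86, 9.34 and 8.16 CPM in insulin livers, so most of the mean difference came with vehicle replicate 2. The log2 fold change was −0.69 ± 0.34 (edgeR adjusted p = 0.852), and it was −0.23 without that library and −0.34 with the GC offset. It met the criteria, at −0.89 and −0.87, when vehicle replicate 1 or 3 was left out. Yy2 lies within the Mbtps2 gene on the same strand and shares 28.4% of its exonic bases, so its counts are uncertain in that part. Srebf2, which encodes SREBP2, measured 47.9, 22.6 and 39.8 CPM in vehicle and 48.3, 40.7 and 54.2 CPM in insulin livers. Its groups overlapped, with vehicle replicate 2 lowest (log2 fold change 0.38 ± 0.30, adjusted p = 0.852), and with the GC offset the value was −0.05.

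Insig2 and Insig1, the sensors that retain SCAP, had the highest levels per kilobase of the regulators (75.6 and 27.2 CPM per kb), and Insig2 the highest of all 29. Insig2 measured 285.9, 192.8 and 401.9 CPM in vehicle and 252.3, 234.1 and 209.1 CPM in insulin livers. Vehicle replicate 2 lay below every insulin liver and the other 2 vehicle livers above, giving a log2 fold change of −0.34 ± 0.30 (adjusted p = 0.852). Without vehicle replicate 2 it was −0.56 and met the criteria, and without vehicle replicate 3 it was −0.05. Insig1 measured 57.1, 153.4 and 75.2 CPM in vehicle and 65.3, 59.9 and 94.8 CPM in insulin livers (log2 fold change −0.38 ± 0.39, adjusted p = 0.854). The sign for Insig1 rested on vehicle replicate 2, since the value without it was 0.15. Scap and Mbtps1, the escort protein and the first protease, had log2 fold changes of 0.17 ± 0.27 and 0.01 ± 0.20, and with the GC offset −0.38 and −0.08.

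Of the 4 genes of sterol handling, 1 had a positive and 3 had negative log2 fold changes (median −0.40), and 0 were called. Stard4, a sterol carrier of the cytosol, measured 26.8, 84.2 and 32.1 CPM in vehicle and 22.6, 25.5 and 34.7 CPM in insulin livers. Apart from vehicle replicate 2 the groups interleaved, and the log2 fold change of −0.79 ± 0.44 (adjusted p = 0.852) was −0.09 without that library. Without vehicle replicate 1 it was −1.07 and met the criteria. Mylip, the ubiquitin ligase IDOL that degrades lipoprotein receptors, measured 11.4, 12.3 and 34.5 CPM in vehicle and 15.5, 13.5 and 7.79 CPM in insulin livers. Here vehicle replicate 3 was the high library (log2 fold change −0.66 ± 0.48, adjusted p = 0.852), and without it the value was 0.05. Soat2, which esterifies cholesterol, measured 18.1, 8.83 and 29.5 CPM in vehicle and 23.98, 21.2 and 22.6 CPM in insulin livers (log2 fold change 0.26 ± 0.40, adjusted p = 0.874). Npc1, the exporter of cholesterol from lysosomes, measured 67.8, 98.4 and 91.3 CPM in vehicle and 80.7, 65.6 and 89.1 CPM in insulin livers (−0.13 ± 0.24, adjusted p = 0.895). The insulin values of Soat2 fell inside the vehicle range, and those of Npc1 overlapped it with insulin replicate 2 just below its lowest value.

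Enzymes and regulators were then set side by side. The median log2 fold change of the 19 enzymes was 0.05 (10 positive, 9 negative) and that of the 6 regulators −0.16, a difference of 0.22. As medians of log2 CPM relative to each gene's mean, the enzymes stood at −0.09, 0.13 and −0.09 in vehicle and at 0.01, −0.08 and 0.22 in insulin livers, and the regulators at −0.11, −0.12 and −0.03 in vehicle and at −0.02, −0.08 and 0.13 in insulin livers. The groups overlapped for both. Leaving out vehicle replicate 3 gave a difference of −0.09, and leaving out vehicle replicate 1 gave 0.05, so neither its sign nor its size was fixed by these 6 livers. It was 0.35 with the GC offset, where the regulators' median was −0.31.

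**Figure D3:**
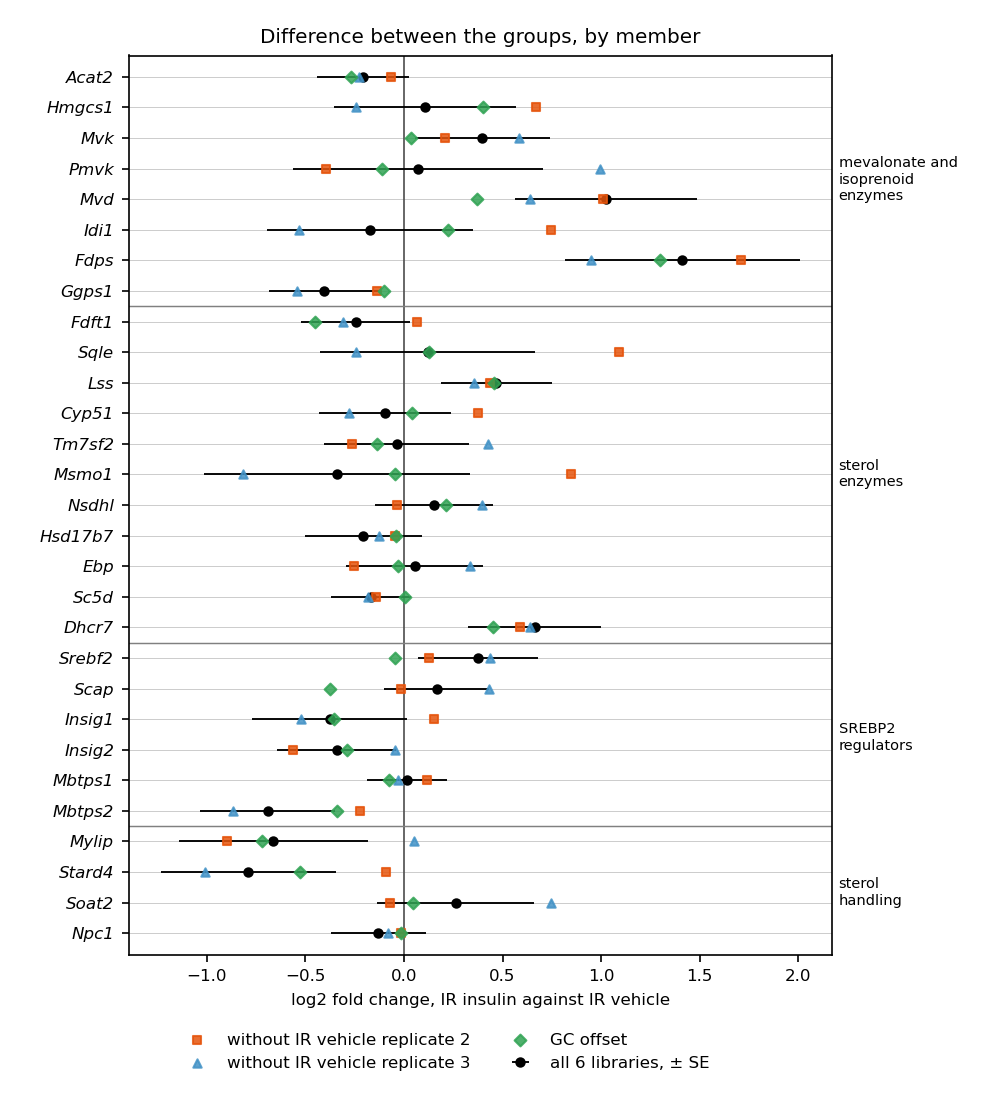
Log2 fold change of IR insulin against IR vehicle for each member, ordered by role: black points with bars are all 6 libraries ± SE, orange squares leave out vehicle replicate 2, blue triangles leave out vehicle replicate 3, and green diamonds use the GC offset. For Sqle, Msmo1, Idi1 and Hmgcs1 the squares lie right of 0 and the triangles left of 0, whereas Fdps, Mvd, Dhcr7 and Lss stay right of 0 and Mbtps2 and Stard4 left of 0 in all 4.

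Most members varied more among vehicle than among insulin livers. The highest vehicle value exceeded the lowest by a median of 2.17-fold over the members, against 1.33-fold in insulin livers, and the vehicle range was the wider for 25 of 29 members (86.2%). Over 13185 genes the same held for 85.05%, with medians of 2.003-fold and 1.28-fold, so the share among the members was near that of all genes. A vehicle range of at least 2-fold was found for 17 members (58.6%, against 50.1% of genes) and an insulin range of that size for 1 (3.45%, against 10.7%), namely Dhcr7.

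Vehicle replicates 2 and 3 departed from the other livers in different members. In vehicle replicate 2, 6 members lay at least 1 log2 unit above the median of the other 5 libraries (20.7%, against 11.8% of genes), namely Msmo1 (1.70), Stard4 (1.65), Idi1 (1.28), Sqle (1.25), Insig1 (1.23) and Mbtps2 (1.23). In the same library 4 lay as far below, namely Pmvk (−2.15), Soat2 (−1.35), Srebf2 (−1.08) and Ebp (−1.03), or 13.8% against 20.7% of genes. After correction for GC content 5 lay at least 1 unit above (17.2%, against 7.23% of genes), namely Msmo1 (1.29), Stard4 (1.24), Sqle (1.22), Insig1 (1.17) and Fdft1 (1.09). Only Pmvk (−1.10) lay as far below (3.45%, against 10.7% of genes), while Idi1 and Mbtps2 were at 0.65 and 0.49. In vehicle replicate 3, 2 of the 29 members lay at least 1 unit above the other libraries (6.90%, against 4.75% of genes), namely Mylip (1.48) and Pmvk (1.05). In that library 5 lay as far below (17.2%, against 7.12% of genes), namely Fdps (−2.44), Mvd (−2.16), Msmo1 (−1.93), Sqle (−1.28) and Hmgcs1 (−1.003), all of them among the 19 enzymes. After GC correction 2 members lay above and 4 below (6.90% and 13.8%, against 4.91% and 6.72% of genes). Sqle, Msmo1, Idi1 and Hmgcs1 were highest in vehicle replicate 2 and lowest in vehicle replicate 3. The enzymes did not move together. Of the 19, vehicle replicate 2 was the highest library for 10 and the lowest for 6. Vehicle replicate 3 was the highest for 3 and the lowest for 7. These departures were noticed in the data, carry no test, and their cause was not tested.

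**Figure D4:**
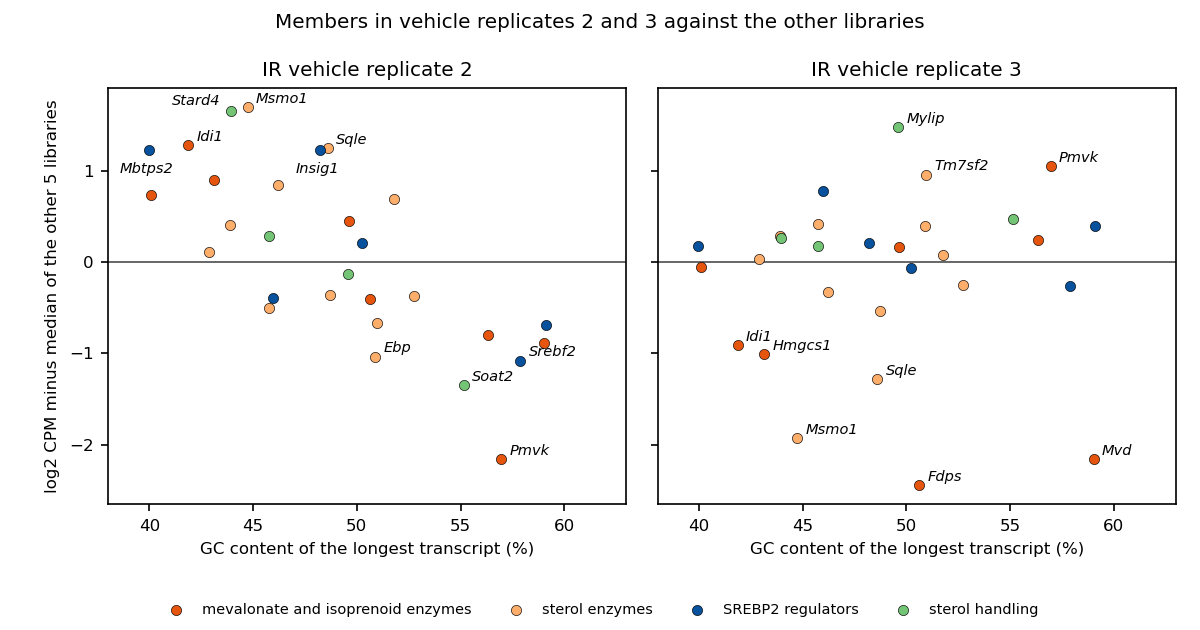
Log2 CPM of each member in vehicle replicate 2 (left) and vehicle replicate 3 (right) minus the median of the other 5 libraries, against the GC content of its longest transcript (%), coloured by role. The values of replicate 2 fall from low to high GC content (rho −0.75 over 29 members), those of replicate 3 do not (rho 0.15), and Msmo1 and Sqle lie above 1 on the left and below −1 on the right.

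The other genes of the pathway were read by list. Of 15 genes for sterol sensing and turnover, 14 were found and tested, 0 were called in either direction by the study's criteria, and the median log2 fold change was −0.11 (6 positive, 8 negative). The smallest p belonged to Rnf139, a ubiquitin ligase of the endoplasmic reticulum (−0.53 ± 0.24, adjusted p = 0.852). Next came Aacs, acetoacetyl-CoA synthetase, which feeds ketone bodies into the pathway. It measured 37.3, 7.11 and 13.6 CPM in vehicle and 54.7, 67.1 and 17.4 CPM in insulin livers (1.26 ± 0.67, adjusted p = 0.852), a large difference with overlapping groups. Pgrmc1, a haem-binding partner of sterol-metabolizing enzymes, measured 1119, 2326 and 1196 CPM in vehicle and 936.3, 1093 and 965 CPM in insulin livers. It was lower in every insulin liver (−0.63 ± 0.34, edgeR adjusted p = 0.852), but vehicle replicate 1 and insulin replicate 2 nearly met. Most of the mean difference came with vehicle replicate 2. Of 12 genes that use isoprenoids, 0 were called (median −0.01, 6 positive and 6 negative). Pggt1b, Icmt and Rce1, which prenylate or process prenylated proteins, stood at −0.56 ± 0.42, 0.29 ± 0.23 and 0.41 ± 0.35. Vehicle replicate 2 was the highest library for Pggt1b (20.9 CPM) and the lowest for Icmt (23.8 CPM) and Rce1 (5.27 CPM). Of 17 genes of LXR action and cholesterol movement, 16 were tested and 0 were called (median −0.13, 5 positive and 11 negative). The smallest p there belonged to the sterol transporter Gramd1c (−0.52 ± 0.31), the lysosomal lipase Lipa (−0.40 ± 0.28) and Stard3 (0.35 ± 0.31), each with an edgeR adjusted p of 0.852. Vehicle replicate 2 was again the highest library for Gramd1c and Lipa and the lowest for Stard3.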

How the data were processed

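Per the study's methods, the authors isolated liver RNA with Trizol, made libraries with the NEBNext Ultra kit, used an Illumina HiSeq, and mapped the reads with Bowtie 2 (2.2.3) to mm10. The deposited table holds raw read counts per gene, neither normalized nor pooled. The counting program, annotation and strand setting are not given in the sources used here, and Bowtie 2 does not splice reads across exon junctions, which can lower counts of genes with short exons. Each of the 6 libraries is 1 mouse, and groups came from the labels.

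Counts were tested with edgeR 4.0.16 (R 4.3.3, quasi-likelihood F test, TMM, no covariate, filterByExpr at its minimum count, 10, and total, 15), with Benjamini-Hochberg adjustment over 13377 genes. SE was derived from the F statistic. The biological coefficient of variation was 0.357, and 1 CPM is about 20.6 counts. Groups of 3 against 3 allow no exact two-sided p below 0.1. GC content, overlaps and 50-base stretches shared with other genes came from GENCODE M21 (54495 of 54532 genes found). A loess curve (span 0.5) on GC content gave the GC offset. DESeq2 1.42.0, RLE factors, no filter, a replicate block, the GC offset and leaving out each library were alternatives.

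The members and lists were chosen with earlier results of these data known. All 29 members are named. Library values are given for members past the criteria and, per role, for the 2 with the smallest p and the 2 with the highest level per kilobase. From each other list the 3 genes with the smallest p are named.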

Additional observations from a re-analysis of the deposited data

How the results depend on the processing

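Under the alternatives 0 members passed an adjusted p of 0.05, and 12 of the 29 (5 higher, 7 lower) had the same direction in each, whereas 17 turned in at least 1. The number of genes past the study's criteria, 383 (134 higher and 249 lower), was 507 with DESeq2 and 742 with no filter. It was 99 to 1349 when 1 library was left out, the most without vehicle replicate 1 and the fewest without insulin replicate 1. Without vehicle replicate 2 it was 508 (225 higher and 283 lower). The split was 93 higher and 379 lower with the GC offset and 203 higher and 118 lower with the replicate block. The count of members past the criteria, 1, was 2 with DESeq2, 3 with no filter, 0 with the GC offset and 0 to 5 on leaving out single libraries (5 on leaving out vehicle replicate 2, namely Idi1, Fdps, Sqle, Cyp51 and Insig2). Fdps kept the call in 8 of 13 alternatives. It lost the call with the GC offset (1.30) and without vehicle replicate 1, vehicle replicate 3, insulin replicate 1 or insulin replicate 2. The cause was not tested.

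After each gene's group mean was subtracted from log2 CPM, the remainders of same-numbered libraries correlated at −0.04, 0.07 and 0.02. Those of libraries with different numbers lay between −0.11 and 0.089, so the numbers were not taken as pairs. With the replicate block 2 members met the criteria (Fdps and Mvd), and Idi1, Cyp51, Tm7sf2 and Msmo1 turned to 0.133, 0.007, 0.050 and 0.229. With the GC offset Pmvk, Idi1, Cyp51, Ebp, Sc5d, Srebf2, Scap and Mbtps1 turned to −0.112, 0.224, 0.043, −0.030, 0.004, −0.046, −0.377 and −0.078. With the replicate block and the GC offset together, Idi1, Cyp51, Msmo1, Sc5d, Srebf2, Scap and Mbtps1 turned to 0.342, 0.095, 0.353, 0.019, −0.040, −0.331 and −0.066.

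The GC offset moved the regulators' median log2 fold change to −0.31 and the difference between enzymes and regulators to 0.35. Leaving out 1 library gave −0.15 to 0.21 for the enzymes' median, −0.19 to 0.05 for the regulators' and −0.087 to 0.156 for the difference. Members that turned when 1 library was left out ranged as follows: Hmgcs1 −0.24 to 0.67, Pmvk −0.40 to 0.99, Idi1 −0.53 to 0.75, Fdft1 −0.435 to 0.066, Sqle −0.24 to 1.09, Cyp51 −0.28 to 0.38, Tm7sf2 −0.26 to 0.43, Msmo1 −0.81 to 0.85, Nsdhl −0.034 to 0.395, Ebp −0.26 to 0.34, Scap −0.016 to 0.430, Insig1 −0.64 to 0.15, Mbtps1 −0.032 to 0.115, Mylip −0.930 to 0.051 and Soat2 −0.072 to 0.744. RLE factors turned no member and changed no member's call.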
